A study of Mus musculus with 12 samples.

Results

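The 39 genes described here are cell cycle and proliferation genes, listed by name and by the phase in which their products act. They comprise 4 G1/S genes (Ccnd1, Ccne1, Ccne2 and E2f1), 13 replication genes (Mcm2 to Mcm7, Cdc6, Cdt1, Gins2, Pcna, Rrm1, Rrm2 and Tyms), 9 G2/M genes (Ccna2, Ccnb1, Ccnb2, Cdk1, Foxm1, Aurka, Plk1, Mki67 and Top2a) and 13 mitosis genes (Cdc20, Bub1, Bub1b, Aurkb, Birc5, Cenpe, Cenpf, Kif11, Kif20a, Tpx2, Nusap1, Prc1 and Ect2). All 39 were found among the 32047 genes of the count table and all 39 passed the filter on low counts in every comparison. This list and the lists of other genes below were chosen with earlier results of these data known. Shares set beside those of all genes therefore describe the lists and are no independent test. The RNA came from mouse kidney, in 3 groups of 4 libraries each, 12 in all. The group NC, a label that is not expanded, served as the reference. The title AKI_A_mcherry names the fluorescent protein mCherry. The title AKI_A_FGF23_R176QR179Q names FGF23, a hormone of phosphate balance, with the substitutions R176Q and R179Q, and its libraries are called the FGF23 variant group. The variant was overexpressed, and acute kidney injury followed 3 weeks later through rhabdomyolysis, in which skeletal muscle breaks down. The labels do not give what "A" stands for, the vector or promoter, the strain, sex or age of the mice, or the day on which kidneys were taken. An uninjured group with either construct was not analysed here, so the variant could be compared only after injury, and injury cannot be told apart from the other treatment of AKI_A_mcherry in its comparison with NC. Whether each library is a separate animal is not stated, so the p-values reflect only how far these samples spread, which may be technical.

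A dividing cell passes from G1 into S phase, in which it copies its DNA, and then through G2 into mitosis. D-type and E-type cyclins with their kinases phosphorylate the retinoblastoma protein, which frees E2F transcription factors to switch on E2F target genes, among them cyclin E and the genes of DNA replication. Later, complexes that contain B-MYB and FOXM1 switch on the genes of G2 and mitosis, many of which carry a CHR element (cell cycle genes homology region) near their start. Inhibitors such as p21, encoded by Cdkn1a, hold the kinases back. Tubule cells of the adult kidney divide rarely, and surviving tubule cells can enter the cycle after acute injury.

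Promoter sequences were taken from RefSeq on the mouse build GRCm38.p6, which is not the build of the count table, and matched 30 of the 39 genes by symbol. The table had no entry for Ccnd1, Ccne2, Mcm4, Gins2, Ccna2, Foxm1, Aurkb, Kif20a and Tpx2. Each sequence below gives the 250 bases before the start of the gene of its phase that had the smallest adjusted p in AKI_A_mcherry against NC among those with an entry. Capitals mark exact matches, on either strand, to an E2F motif (TTTCCCGC, TTTCGCGC, TTTGCCGC or TTTGGCGC), the CHR motif TTTGAA or the motif CCAAT. Ccne1, of G1/S, lies at chr7:38107491-38107740 on the minus strand, Cdc6, of replication, at chr11:98907901-98908150 on the plus strand, Cdk1, of G2/M, at chr10:69352913-69353162 on the minus strand and Birc5, of mitosis, at chr11:117848987-117849236 on the plus strand.
Ccne1: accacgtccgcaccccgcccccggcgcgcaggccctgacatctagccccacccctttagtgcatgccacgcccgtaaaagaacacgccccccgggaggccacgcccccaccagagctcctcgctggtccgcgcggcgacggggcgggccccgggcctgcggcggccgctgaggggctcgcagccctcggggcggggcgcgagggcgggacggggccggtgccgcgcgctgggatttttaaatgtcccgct
Cdc6: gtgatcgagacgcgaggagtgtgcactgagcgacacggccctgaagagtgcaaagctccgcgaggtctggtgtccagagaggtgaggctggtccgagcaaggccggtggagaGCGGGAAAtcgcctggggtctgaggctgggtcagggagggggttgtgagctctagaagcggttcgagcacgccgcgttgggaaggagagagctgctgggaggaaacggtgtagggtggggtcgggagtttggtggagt
Cdk1: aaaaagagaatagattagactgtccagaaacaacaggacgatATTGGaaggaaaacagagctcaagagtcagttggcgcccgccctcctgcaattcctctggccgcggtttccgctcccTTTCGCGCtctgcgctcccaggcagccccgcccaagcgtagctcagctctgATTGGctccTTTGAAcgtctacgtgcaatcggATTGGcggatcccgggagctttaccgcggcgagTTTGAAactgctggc
Birc5: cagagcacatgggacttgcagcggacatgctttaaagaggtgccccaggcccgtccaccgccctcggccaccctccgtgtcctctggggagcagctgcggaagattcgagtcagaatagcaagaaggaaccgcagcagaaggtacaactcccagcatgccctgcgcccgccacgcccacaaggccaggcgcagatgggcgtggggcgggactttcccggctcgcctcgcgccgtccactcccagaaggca
The Cdc6 sequence held an E2F match 138 bases before the start. That of Cdk1 held an E2F match at 131 bases, CHR matches at 71 and 15 bases and CCAAT matches at 208, 80 and 48 bases before the start. The Ccne1 and Birc5 windows held no match to these letters, which says nothing of the factors that bind there.

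Over the whole 300-base windows of the table, which add 50 bases after the start, an E2F match was present in 2.26% of 32851 promoters, a CHR match in 17.9%, a CCAAT match in 37.4% and both of the latter in 6.95%. These shares are over all promoters listed, whereas each member entered once, with its first listed start. The replication genes held an E2F match in 6 of 11 windows (Mcm3, Mcm5, Mcm6, Mcm7, Cdc6 and Cdt1), against 1 of 7 for G2/M (Cdk1), 0 of 10 for mitosis and 0 of 2 for G1/S. CHR and CCAAT matches occurred together in 6 of 7 G2/M windows, in which Ccnb1 was the exception, in 6 of 10 mitosis windows (Bub1b, Cenpf, Cdc20, Kif11, Prc1 and Ect2) and in 1 of 11 replication windows (Mcm2).  These matches are a description of the sequence and are not sites of measured binding.

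Library totals were 55324078 to 70638283 counts. The members spanned 18 counts, for Bub1 in 1 library, to 15684 counts, for Ccnd1. In some library, 16 members had under 100 counts, most of them G2/M or mitosis genes. A count of 4 occurred 11995 times in the table, against 5847 for 3 and 3638 for 5, so some single events may enter the table several times, and a count does not stand for 1 molecule. Levels are given as CPM, counts scaled to a common library total after multiplying each total by its TMM factor, which was 0.888 to 0.925 in NC, 0.901 to 1.03 in AKI_A_mcherry and 1.11 to 1.13 in the FGF23 variant group. Summed over 5 proximal tubule markers, levels were 6026 to 9656 CPM in NC, 710.4 to 999.0 in AKI_A_mcherry and 928.6 to 2229 in the FGF23 variant group, so kidney tubule RNA was present in all 12 libraries. Kidney RNA holds many cell types, and in such RNA more dividing cells and more RNA per dividing cell cannot be told apart.

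Levels between genes were compared as the deposited FPKM, which divides by gene length. In NC, the highest mean among the members was that of Ccnd1, cyclin D1, at 36.3 ± 5.72 FPKM (SD, n = 4), followed by Pcna, the sliding clamp of the replication fork, at 12.6 ± 1.44. The median of the members' mean FPKM in NC was 1.61 over the replication genes, 0.786 over G1/S, 0.475 over G2/M and 0.367 over mitosis. In AKI_A_mcherry these medians were 4.94, 1.72, 0.895 and 0.532, and in the FGF23 variant group 3.71, 1.10, 0.635 and 0.492, in the same order of phases. Mitosis genes were thus measured at low levels in every group. The lowest member in each of the 3 groups on this scale was Cenpf, which encodes a large kinetochore protein, at 0.0825 ± 0.0222 FPKM in NC.

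The comparison of AKI_A_mcherry with NC showed how cell cycle RNA differed in the injured kidney. Of the 39 members, 24 were higher and 1, Ccnd1, was lower in AKI_A_mcherry (edgeR quasi-likelihood test, adjusted p below 0.05). Among all 18724 genes tested, 53.2% passed, 27.2% higher and 26.0% lower. By phase, 3 of 4 G1/S genes, 12 of 13 replication genes, 5 of 9 G2/M genes and 4 of 13 mitosis genes were higher. The groups did not overlap in CPM for 22 of the higher members and for Ccnd1, against 26.0% and 25.4% of all genes. The median log2 fold change was 1.42 over the replication genes, 0.92 over G1/S, 0.71 over G2/M and 0.31 over mitosis, beside -0.0026 over all genes tested. The count of higher members was 21 to 24 when single libraries were left out. With all 12 libraries in 1 fit, 2 of 9 G2/M genes passed (adjusted p = 0.187 for Foxm1, 0.0529 for Mki67 and 0.156 for Top2a) and Aurkb did not (0.0547), and with NC replicate 3 or AKI_A_mcherry replicate 4 left out, 1 of 4 G1/S genes was higher.

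How these genes differed with the variant after injury was read from the FGF23 variant group against AKI_A_mcherry. No member was higher and 12 were lower in the FGF23 variant group by the same edgeR test, among them Ccne1, E2f1, Mcm3, Cdc6, Gins2, Cdk1, Mki67 and Birc5. Unadjusted p-values under 0.05 were reached by 0 members in the higher and 21 in the lower direction, and DESeq2 and limma-voom each called 0 higher and 14 lower. Among all 18824 genes tested, 23.4% passed, 11.8% higher and 11.6% lower. The 12 were 2 of 4 G1/S genes, 6 of 13 replication genes, 3 of 9 G2/M genes and 1 of 13 mitosis genes. All 39 fitted log2 fold changes were below 0, with a median of -0.60, beside 0.0084 over all genes, and 35 of 39 were below 0 when libraries were scaled by their totals alone. The FGF23 variant libraries lay below all AKI_A_mcherry libraries for 8 members, 7 of the 12 and Mcm4, against 13.0% of all genes. The 2 comparisons described so far share the AKI_A_mcherry libraries, so a high AKI_A_mcherry value enters both.

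The number of lower members in that comparison rested on few libraries. It was 2 without FGF23 variant replicate 1, 2 without its replicate 2, 7 without its replicate 3 and 16 without its replicate 5. It was 13, 3, 7 and 5 without AKI_A_mcherry replicates 1, 2, 3 and 4. Mcm3 passed in all 17 alternatives tried and Gins2 in 16. With the replicate number as a block, Gins2 did not pass (log2 -1.19, edgeR adjusted p = 0.142). The other 10 of the 12 calls each depended on single libraries, any of which ended the call when left out. Those of Ccne1, E2f1, Mki67 and Birc5 are given with these genes, and the other 6 follow (edgeR adjusted p then in brackets): for Mcm5 on FGF23 variant replicates 1, 2 and 3 and AKI_A_mcherry replicates 2, 3 and 4 (0.0709 to 0.124), for Mcm7 on FGF23 variant replicates 1 and 2 and AKI_A_mcherry replicates 2, 3 and 4 (0.0527 to 0.0799), for Cdc6 on FGF23 variant replicates 1, 2 and 3 and AKI_A_mcherry replicates 2, 3 and 4 (0.0594 to 0.0967), for Cdt1 on FGF23 variant replicates 1, 2 and 3 and AKI_A_mcherry replicates 2 and 4 (0.0517 to 0.0761), for Cdk1 on FGF23 variant replicates 1 and 2 and AKI_A_mcherry replicates 2 and 4 (0.0515 to 0.0721) and for Plk1 on FGF23 variant replicates 1 and 2 and AKI_A_mcherry replicate 2 (0.0563 to 0.0682). Scaling by library totals alone left 5 lower members. It moved the median of all genes from 0.0084 to 0.21 on the log2 scale and split the calls over all genes into 4080 higher and 1032 lower, against 2214 and 2186 with TMM factors.

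The FGF23 variant group was also compared with NC, with libraries that each enter one of the comparisons above. Of the 39 members, 13 were higher and 3 lower (edgeR quasi-likelihood test), against 21.6% and 20.5% of the 19005 genes tested, of which 42.2% passed in either direction. The higher members were 11 of 13 replication genes, Ccne1 and Tpx2, and the lower ones Ccnd1, Cenpe and Nusap1. Of the 9 G2/M genes, 0 passed in either direction, with 0 at an unadjusted p under 0.05 and 0 by DESeq2 and limma-voom. The median log2 fold change was 0.81 over replication, 0.22 over G1/S, -0.12 over G2/M and -0.24 over mitosis, beside 0.011 over all genes. The groups did not overlap for 13 members that lay higher, 12 of those called and Ccne2, and for 2 that lay lower, against 22.1% and 19.6% of all genes. Scaling by library totals alone moved the median of all genes to 0.34, split the calls over all genes into 7833 higher and 2092 lower in place of 4108 and 3903, and gave 16 higher and 2 lower members, the 13 replication genes among the higher ones. For AKI_A_mcherry against NC it moved that median to 0.12.

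**Figure D1:**
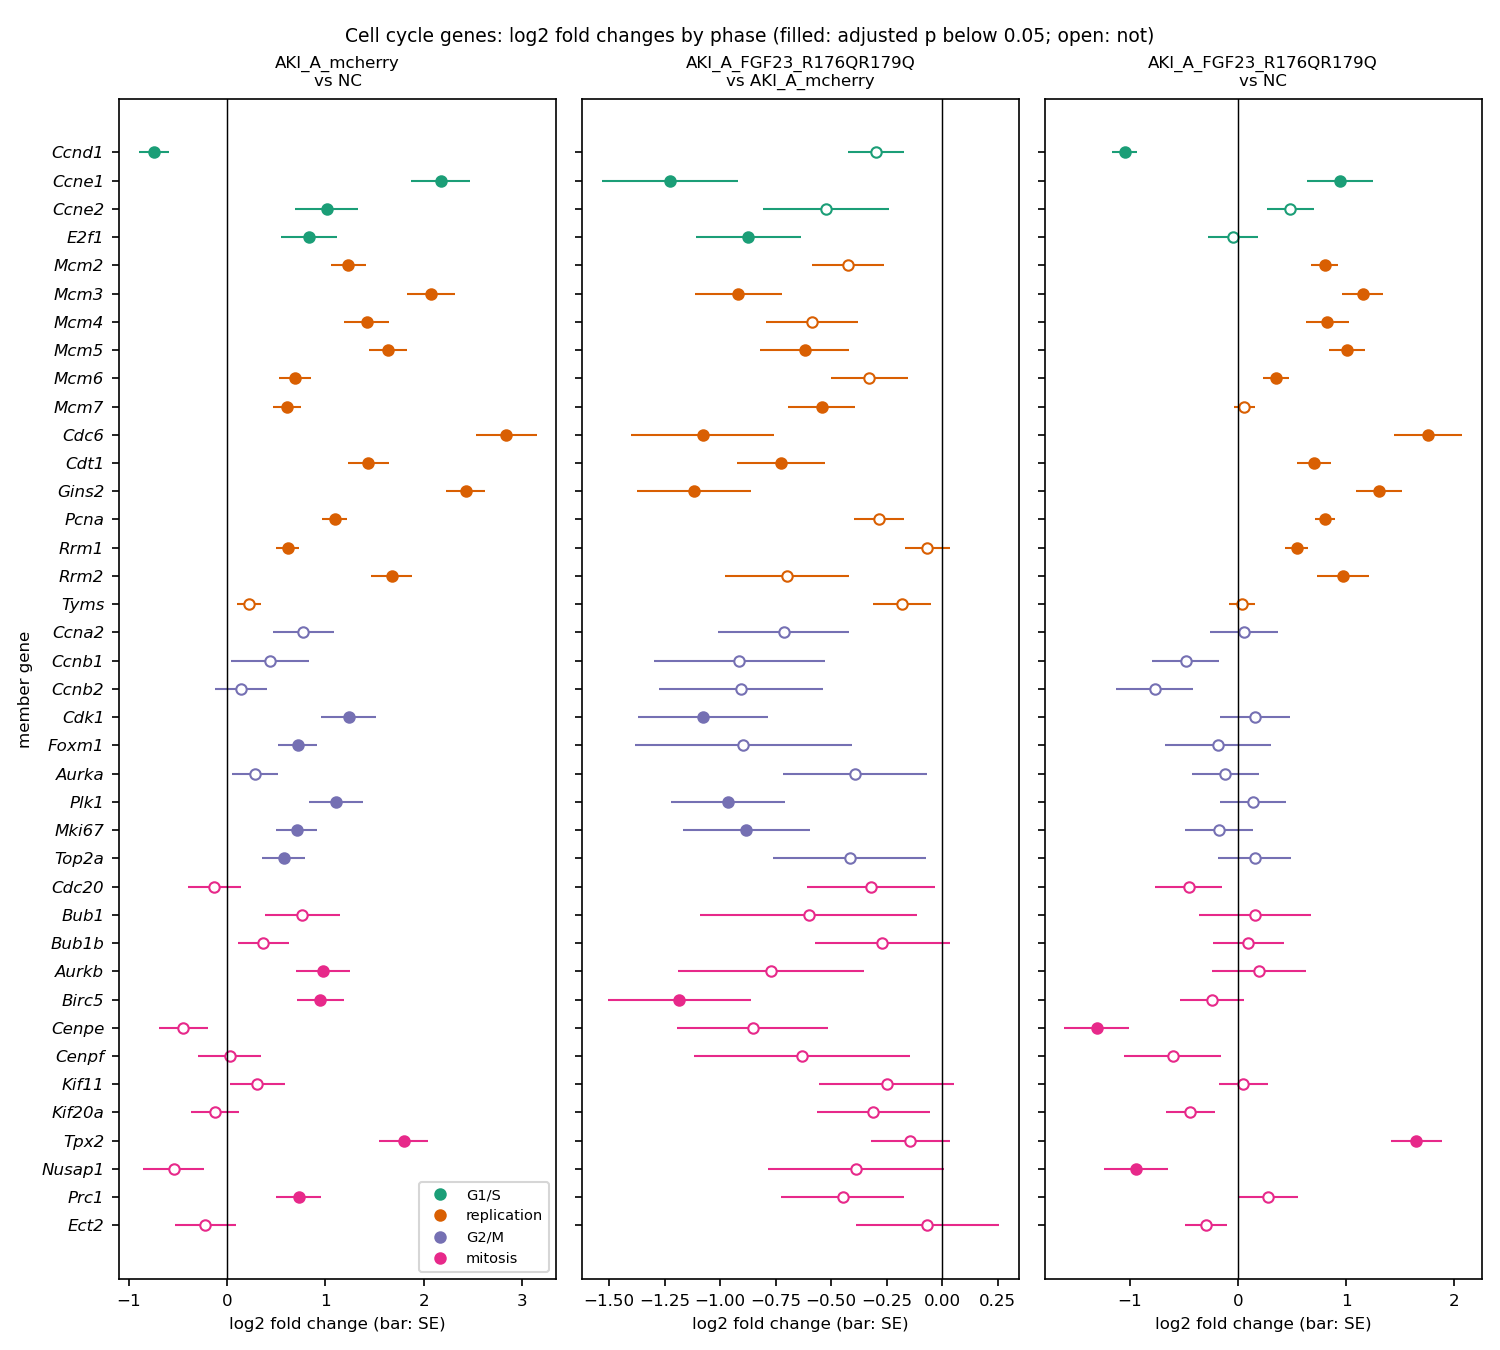
Log2 fold change of each of the 39 members (rows, ordered and coloured by phase) in the 3 comparisons (panels, each with its own horizontal scale); bars are the SE and filled points have an edgeR adjusted p below 0.05. In the left panel 24 points are filled on the right of 0 and Ccnd1 on its left, in the middle panel all 39 points lie left of 0 with 12 filled (35 of 39 lie below 0 with library totals alone), and in the right panel 11 of 13 replication genes are filled on the right.

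Markers of the cell types that kidney RNA can hold differed between the groups as well. The summed level of 6 injured tubule markers was 16.0 to 26.3 CPM in NC, 4122 to 5062 CPM in AKI_A_mcherry and 698.4 to 2144 CPM in the FGF23 variant group, with 5 of 6 higher in AKI_A_mcherry than in NC and 5 of 6 lower in the FGF23 variant group than in AKI_A_mcherry. All 5 proximal tubule markers were lower in AKI_A_mcherry than in NC, and in the FGF23 variant group 2 of 5 were higher than in AKI_A_mcherry. Of all genes, 27.2% were higher and 26.0% lower in AKI_A_mcherry against NC, and 11.8% and 11.6% in the FGF23 variant group against AKI_A_mcherry. Macrophage and monocyte markers summed to 134 to 186 CPM in NC, 109 to 251 CPM in AKI_A_mcherry and 101 to 141 CPM in the FGF23 variant group (8 markers, of which 1 was higher and 2 lower in AKI_A_mcherry than in NC). Neutrophil markers summed to 0.0638 to 0.436, 1.43 to 5.42 and 0.835 to 3.12 CPM in the same order of groups, with Mpo and Elane at 0 in all NC libraries, and 3 of 6 were tested and higher in AKI_A_mcherry than in NC. Lymphocyte markers summed to 3.41 to 4.91, 1.12 to 2.01 and 1.17 to 3.18 CPM, with 3 of 8 lower in AKI_A_mcherry than in NC. Endothelial markers summed to 241 to 313, 158 to 259 and 295 to 382 CPM, fibroblast markers to 163 to 226, 128 to 409 and 349 to 382 CPM and red blood cell precursor markers to 41.9 to 167, 14.5 to 116 and 38.2 to 186 CPM. In AKI_A_mcherry against NC, 2 of 5 fibroblast markers were higher and 2 lower, so their sum mixes opposite changes. Of the endothelial and of the red blood cell precursor markers, 1 each was lower. Against AKI_A_mcherry, the FGF23 variant group was higher in 2 of 5 endothelial and 2 of 5 fibroblast markers. Of the 8 macrophage and monocyte markers, 1 was higher and 2 lower there. The part of these differences in the changes of the cell cycle genes was not tested.

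Among the G1/S genes, the cyclins of the D and E type moved in opposite directions in AKI_A_mcherry against NC. Ccnd1 (ENSMUSG00000070348), cyclin D1, which couples growth signals to entry into the cycle, was at 222, 174, 178 and 250.1 CPM in NC, 97.4, 113, 138 and 142 CPM in AKI_A_mcherry and 99.9, 110.1, 93.9 and 99.1 CPM in the FGF23 variant group. All 4 NC libraries lay above all 8 others, and the FGF23 variant libraries spread less than those of AKI_A_mcherry. The log2 fold change was -0.75 ± 0.15 (SE, the log2 fold change over the root of its F statistic) in AKI_A_mcherry against NC (edgeR adjusted p = 0.00187) and -1.05 ± 0.12 in the FGF23 variant group against NC (adjusted p = 4.88e-05). Between the FGF23 variant group and AKI_A_mcherry, it was -0.30 ± 0.12 (edgeR adjusted p = 0.108), and -0.39 without AKI_A_mcherry replicate 1 (0.0330).

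Ccne1 (ENSMUSG00000002068), cyclin E1, which drives the G1/S transition with CDK2, was at 0.907, 0.743, 0.938 and 1.34 CPM in NC, 2.64, 5.56, 4.30 and 5.19 CPM in AKI_A_mcherry and 1.19, 1.74, 1.94 and 2.76 CPM in the FGF23 variant group. AKI_A_mcherry lay above NC in all libraries, and the FGF23 variant group overlapped both. Ccne1 rose 4.51-fold in AKI_A_mcherry against NC (log2 2.17 ± 0.30, edgeR adjusted p = 1.20e-04) and was 2.34-fold lower in the FGF23 variant group than in AKI_A_mcherry (log2 -1.23 ± 0.31, adjusted p = 0.0183). Against NC, the FGF23 variant group was 1.92-fold higher (adjusted p = 0.0285). The call against NC was lost without FGF23 variant replicates 3 or 5 or NC replicates 1, 2 or 3 (adjusted p of 0.0584 to 0.0939), and that against AKI_A_mcherry without FGF23 variant replicates 1 or 2 (0.0501 to 0.0527).

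Ccne2, cyclin E2, the close relative of Ccne1, was at 2.70, 2.42, 1.52 and 2.73 CPM in NC, 3.57, 3.93, 3.30 and 8.00 CPM in AKI_A_mcherry and 3.60, 2.93, 3.17 and 3.53 CPM in the FGF23 variant group. Replicate 4 of AKI_A_mcherry stood far above the other 3. Ccne2 rose 2.02-fold against NC (edgeR adjusted p = 0.0214), with an adjusted p of 0.0718 without AKI_A_mcherry replicate 4 and 0.0604 without NC replicate 3, and the change of the FGF23 variant group against AKI_A_mcherry was -0.52 ± 0.28 on the log2 scale (adjusted p = 0.205). E2f1, the E2F factor that activates replication genes, was at 3.05, 3.04, 3.72 and 5.69 CPM in NC, 4.70, 9.03, 5.36 and 8.42 CPM in AKI_A_mcherry and 4.02, 3.23, 3.47 and 4.46 CPM in the FGF23 variant group. The 4 FGF23 variant libraries lay below all of AKI_A_mcherry and within the range of NC. E2f1 rose 1.78-fold in AKI_A_mcherry against NC (edgeR adjusted p = 0.0275) and fell 1.83-fold in the FGF23 variant group against AKI_A_mcherry (log2 -0.87 ± 0.24, adjusted p = 0.0244). The rise was lost without AKI_A_mcherry replicates 2 or 4 or NC replicates 1, 2 or 3 (adjusted p of 0.0633 to 0.0763), and the fall without any of FGF23 variant replicates 1, 2 and 3 and AKI_A_mcherry replicates 2 and 4 (0.0542 to 0.0696).

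In AKI_A_mcherry against NC, 12 of the 13 replication genes rose, by up to 7.16-fold. Gins2 (ENSMUSG00000031821), a subunit of the GINS complex that completes the replicative helicase, was at 5.15, 5.46, 4.84 and 5.77 CPM in NC, 21.1, 40.7, 26.5 and 25.5 CPM in AKI_A_mcherry and 17.0, 7.70, 14.7 and 13.6 CPM in the FGF23 variant group. The 3 groups did not overlap, with AKI_A_mcherry highest and NC lowest. Gins2 rose 5.38-fold in AKI_A_mcherry against NC (log2 2.43 ± 0.20, edgeR adjusted p = 2.56e-06) and was 2.17-fold lower in the FGF23 variant group than in AKI_A_mcherry (log2 -1.12 ± 0.26, adjusted p = 0.0133). The latter call was lost with the replicate number as a block (edgeR adjusted p = 0.142). Cdc6, whose promoter is printed above with its E2F match, rose the most of the 39 members. Its levels were 0.635, 0.605, 0.437 and 0.494 CPM in NC, 2.34, 3.79, 3.95 and 5.45 CPM in AKI_A_mcherry and 1.59, 1.15, 2.00 and 2.70 CPM in the FGF23 variant group, from 27 counts upward. Cdc6 rose 7.16-fold against NC (adjusted p = 2.14e-05). In the FGF23 variant group it was 2.11-fold lower than in AKI_A_mcherry (adjusted p = 0.0353) and 3.38-fold higher than in NC (adjusted p = 0.00105).

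Cdt1, which loads the helicase together with CDC6, was at 4.92, 5.81, 6.68 and 6.54 CPM in NC, 12, 19.5, 12.6 and 20.5 CPM in AKI_A_mcherry and 8.49, 9.41, 9.58 and 12 CPM in the FGF23 variant group. Again the 3 groups did not overlap. Cdt1 rose 2.71-fold in AKI_A_mcherry against NC (edgeR adjusted p = 1.70e-04) and was 1.65-fold lower in the FGF23 variant group than in AKI_A_mcherry (log2 -0.72 ± 0.20, adjusted p = 0.0250). Against NC, the FGF23 variant group was 1.63-fold higher in Cdt1 (adjusted p = 0.00363) and 2.47-fold higher in Gins2 (adjusted p = 6.02e-04). The helicase itself is a ring of MCM2 to MCM7, and all 6 of its genes rose in AKI_A_mcherry against NC, namely Mcm2 2.35-fold, Mcm3 4.22-fold, Mcm4 2.67-fold, Mcm5 3.10-fold, Mcm6 1.61-fold and Mcm7 1.52-fold. Mcm3 was at 4.45, 3.42, 6.16 and 5.55 CPM in NC, 14.6, 24.5, 16.6 and 26.7 CPM in AKI_A_mcherry and 10.2, 9.60, 11.4 and 12.9 CPM in the FGF23 variant group. It was 1.89-fold lower in the FGF23 variant group than in AKI_A_mcherry (log2 -0.92 ± 0.20, adjusted p = 0.00943), without overlap of the groups. Mcm5 and Mcm7 were 1.54-fold and 1.46-fold lower there, and Mcm2, Mcm4 and Mcm6 did not pass (edgeR adjusted p of 0.0809, 0.0653 and 0.196). Mcm4 passed as lower by DESeq2 (adjusted p = 0.0295) and limma-voom (0.0388), and Mcm2 in edgeR without AKI_A_mcherry replicate 1 (0.0308).

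Mcm6, another subunit of the ring, was at 28.9, 23.9, 28.1 and 26.0 CPM in NC, 32.0, 48.8, 36.7 and 54.2 CPM in AKI_A_mcherry and 36.1, 29.2, 30.9 and 42.1 CPM in the FGF23 variant group. The injured groups overlapped each other and lay above NC. Mcm6 was 1.61-fold higher in AKI_A_mcherry (edgeR adjusted p = 0.00418) and 1.28-fold higher in the FGF23 variant group (adjusted p = 0.0354) than in NC. The latter call was lost without FGF23 variant replicates 1 or 5 or NC replicates 2, 3 or 4 (0.0534 to 0.106). Against NC, the FGF23 variant group was also higher in the other ring genes but Mcm7, namely Mcm2 1.74-fold, Mcm3 2.22-fold, Mcm4 1.77-fold and Mcm5 2.01-fold, and Mcm7 was at 21.9 ± 2.51 against 20.8 ± 0.736 CPM (SD, n = 4 each, adjusted p = 0.668).

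Pcna (ENSMUSG00000027342) was at 38.1, 39.9, 35.4 and 31.9 CPM in NC, 68.5, 76.6, 69.7 and 94.5 CPM in AKI_A_mcherry and 59.4, 62.3, 68.6 and 66.7 CPM in the FGF23 variant group. All 8 injured libraries lay above all 4 NC libraries. Pcna rose 2.14-fold in AKI_A_mcherry (log2 1.09 ± 0.13, edgeR adjusted p = 3.27e-05) and 1.75-fold in the FGF23 variant group (log2 0.81 ± 0.09, adjusted p = 4.71e-05) against NC. The difference between the injured groups was -0.28 ± 0.11 on the log2 scale and did not pass (adjusted p = 0.0943). Among the enzymes that make deoxynucleotides, Rrm2, the regulated subunit of ribonucleotide reductase, was at 5.57, 5.84, 6.47 and 7.75 CPM in NC, 15.5, 16.1, 20.9 and 29.0 CPM in AKI_A_mcherry and 12.5, 8.35, 10.3 and 19.7 CPM in the FGF23 variant group. NC lay below every injured library. Rrm2 rose 3.19-fold in AKI_A_mcherry (adjusted p = 6.09e-05) and 1.96-fold in the FGF23 variant group (adjusted p = 0.00783). Between the injured groups, its log2 difference was -0.70 ± 0.28 (edgeR adjusted p = 0.0969). Rrm2 passed as lower there by DESeq2 (adjusted p = 0.0437) and limma-voom (0.0433). In edgeR it did so with the replicate number as a block (0.0426) and without FGF23 variant replicate 5 (0.0274).

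Rrm1, the large subunit, rose 1.53-fold and 1.46-fold against NC in the 2 injured groups, and between them its log2 difference was -0.07 ± 0.10 (edgeR adjusted p = 0.666), which turned positive with library totals alone. Tyms, thymidylate synthase, was the replication gene that passed in no comparison. It was at 11.8 ± 1.03 CPM in NC, 13.7 ± 1.37 CPM in AKI_A_mcherry and 12.2 ± 1.47 CPM in the FGF23 variant group (SD, n = 4 each), with adjusted p of 0.149 for AKI_A_mcherry against NC and 0.338 for the FGF23 variant group against AKI_A_mcherry. Pcna, Tyms, Ccnb1 and Ccnb2 have pseudogenes in the mouse annotation, and how the deposited counts treated reads shared with them is not given, so their values are uncertain.

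Of the G2/M genes, Cdk1, Foxm1, Plk1, Mki67 and Top2a were higher in AKI_A_mcherry than in NC by the edgeR test. The cyclins and Aurka did not pass in that test. Cdk1 (ENSMUSG00000019942), the kinase that drives mitotic entry, was at 1.94, 3.18, 1.63 and 1.64 CPM in NC, 3.53, 6.26, 4.74 and 5.22 CPM in AKI_A_mcherry and 2.09, 1.33, 2.71 and 3.33 CPM in the FGF23 variant group. The AKI_A_mcherry libraries lay above all 4 NC libraries and all 4 FGF23 variant libraries, and the latter groups overlapped. Cdk1 rose 2.36-fold against NC (log2 1.24 ± 0.28, edgeR adjusted p = 0.00332) and was 2.11-fold lower in the FGF23 variant group than in AKI_A_mcherry (log2 -1.08 ± 0.29, adjusted p = 0.0249). Plk1, polo-like kinase 1, which activates CDK1 and shapes the spindle, was at 1.27, 1.76, 1.76 and 0.909 CPM in NC, 2.76, 3.77, 2.94 and 2.84 CPM in AKI_A_mcherry and 1.40, 1.11, 1.63 and 2.24 CPM in the FGF23 variant group. It showed the same order of groups, 2.16-fold higher in AKI_A_mcherry than in NC (adjusted p = 0.00542) and 1.95-fold lower in the FGF23 variant group than in AKI_A_mcherry (adjusted p = 0.0234).

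Mki67 (ENSMUSG00000031004), which encodes the proliferation antigen Ki-67, was at 3.70, 5.91, 7.05 and 6.38 CPM in NC, 8.20, 11.4, 8.94 and 9.06 CPM in AKI_A_mcherry and 4.57, 3.13, 4.14 and 8.79 CPM in the FGF23 variant group. Replicate 5 of the FGF23 variant group fell within the range of AKI_A_mcherry, and its other 3 libraries lay below that range. Mki67 was 1.63-fold higher in AKI_A_mcherry than in NC (edgeR adjusted p = 0.0153) and 1.84-fold lower in the FGF23 variant group than in AKI_A_mcherry (log2 -0.88 ± 0.29, adjusted p = 0.0483). The latter was lost without any of 7 libraries, all but FGF23 variant replicate 5 (adjusted p of 0.0586 to 0.123). Top2a, topoisomerase II alpha, which untangles the copied chromosomes, was at 3.54, 5.57, 5.47 and 5.10 CPM in NC, 5.52, 7.80, 6.54 and 9.39 CPM in AKI_A_mcherry and 4.01, 3.36, 4.34 and 10.5 CPM in the FGF23 variant group. Replicate 5 again stood apart, above every other library. Top2a was 1.49-fold higher in AKI_A_mcherry than in NC (adjusted p = 0.0437), a call lost without AKI_A_mcherry replicates 2 or 4 or any NC library (0.0547 to 0.132) and with no filter on low counts (0.0556). Between the injured groups, its log2 difference was -0.42 ± 0.34 (adjusted p = 0.408), and -0.92 (adjusted p = 0.0272) without replicate 5.

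Foxm1, the transcription factor of G2/M genes, was at 2.36, 2.45, 2.86 and 3.22 CPM in NC, 3.85, 4.82, 4.20 and 5.03 CPM in AKI_A_mcherry and 2.26, 2.76, 0.454 and 4.26 CPM in the FGF23 variant group. The value in FGF23 variant replicate 3 rested on 32 counts and was below every other library. Foxm1 was 1.65-fold higher in AKI_A_mcherry than in NC (edgeR adjusted p = 0.00986), and between the injured groups the log2 difference was -0.90 ± 0.49 (adjusted p = 0.211). Ccna2, cyclin A2, which acts in S phase and G2, was at 3.09, 4.93, 5.66 and 2.46 CPM in NC, 4.83, 6.56, 5.92 and 10.3 CPM in AKI_A_mcherry and 2.83, 3.52, 4.27 and 6.40 CPM in the FGF23 variant group. Its groups overlapped throughout, with an edgeR adjusted p of 0.0564 for AKI_A_mcherry against NC and 0.104 for the FGF23 variant group against AKI_A_mcherry. Against NC, Ccna2 passed as higher by DESeq2 (adjusted p = 0.0316) and limma-voom (0.0450). In edgeR it did so with library totals alone (0.0329) and without AKI_A_mcherry replicate 1 (0.0365) or NC replicate 3 (0.0318). The other 12 of 17 alternatives did not call it. Between the injured groups, it passed as lower without FGF23 variant replicate 5 (0.0499).

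Ccnb1, cyclin B1, the partner of CDK1, was at 1.02, 1.71, 1.17 and 0.877 CPM in NC, 1.33, 0.883, 1.34 and 2.88 CPM in AKI_A_mcherry and 0.783, 0.794, 0.680 and 1.20 CPM in the FGF23 variant group. Only AKI_A_mcherry replicate 4 stood above the rest, and no comparison passed, the adjusted p for AKI_A_mcherry against NC being 0.377. Ccnb2, cyclin B2, was at 1.79 ± 0.343, 1.97 ± 0.409 and 1.06 ± 0.505 CPM in NC, AKI_A_mcherry and the FGF23 variant group (SD, n = 4 each). Aurka, the Aurora kinase of the spindle poles, was at 2.29, 1.82, 2.43 and 1.90 CPM in NC, 1.87, 2.71, 2.93 and 2.70 CPM in AKI_A_mcherry and 2.07, 0.912, 2.07 and 2.81 CPM in the FGF23 variant group. The groups overlapped, and the edgeR adjusted p was 0.337 for AKI_A_mcherry against NC and 0.409 between the injured groups.

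Of the 13 mitosis members, 9 did not pass in AKI_A_mcherry against NC, and Tpx2, Aurkb, Birc5 and Prc1 were higher. These 4 are 30.8%, near the 27.2% of all genes that were higher. Tpx2 (ENSMUSG00000027469), a spindle assembly factor that activates Aurora A, was at 1.43, 2.54, 2.15 and 1.40 CPM in NC, 5.33, 7.06, 6.21 and 7.54 CPM in AKI_A_mcherry and 6.36, 4.87, 5.54 and 7.17 CPM in the FGF23 variant group. All 8 injured libraries lay above NC and the injured groups overlapped. Tpx2 rose 3.48-fold in AKI_A_mcherry (log2 1.80 ± 0.25, edgeR adjusted p = 1.21e-04) and 3.14-fold in the FGF23 variant group (log2 1.65 ± 0.24, adjusted p = 2.50e-04) against NC. Between the injured groups, its log2 difference was -0.14 ± 0.18 (adjusted p = 0.590).

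Birc5 (ENSMUSG00000017716), survivin, a subunit of the chromosomal passenger complex, was at 1.63, 1.64, 1.60 and 1.95 CPM in NC, 2.31, 3.83, 4.01 and 3.00 CPM in AKI_A_mcherry and 0.976, 0.951, 1.81 and 2.11 CPM in the FGF23 variant group. The AKI_A_mcherry libraries lay above those of both other groups. Birc5 rose 1.93-fold against NC (edgeR adjusted p = 0.00614) and was 2.27-fold lower in the FGF23 variant group than in AKI_A_mcherry (log2 -1.18 ± 0.32, adjusted p = 0.0252). It was the only 1 of the 13 mitosis members to pass there, 7.69% beside the 11.6% of all genes that were lower. That call was lost without FGF23 variant replicates 1 or 2 or AKI_A_mcherry replicates 2 or 3 (0.0574 to 0.0714). Aurkb, the kinase of the same complex, was 1.96-fold higher in AKI_A_mcherry than in NC (adjusted p = 0.0112), and Prc1, which bundles the microtubules of the central spindle, 1.66-fold (adjusted p = 0.0194; 0.0547 to 0.0633 without AKI_A_mcherry replicate 1, NC replicate 2 or NC replicate 4). Between the injured groups, their edgeR adjusted p were 0.207 and 0.268, and Aurkb passed as lower without FGF23 variant replicate 5 (0.0469).

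Cdc20, which activates the anaphase-promoting complex, was at 2.98, 3.25, 3.50 and 1.71 CPM in NC, 1.96, 2.65, 2.60 and 3.21 CPM in AKI_A_mcherry and 1.71, 1.61, 1.76 and 3.36 CPM in the FGF23 variant group. Replicate 5 of the FGF23 variant group was the highest of its group, and the groups overlapped (edgeR adjusted p = 0.711 for AKI_A_mcherry against NC). Bub1b, the checkpoint kinase BUBR1, was at 2.65, 1.35, 1.99 and 1.74 CPM in NC, 1.99, 2.55, 2.72 and 2.67 CPM in AKI_A_mcherry and 2.08, 1.39, 1.46 and 3.41 CPM in the FGF23 variant group. No comparison of Bub1b passed. Ect2, which starts the cleavage furrow of the dividing cell, was at 7.26, 5.65, 5.13 and 6.38 CPM in NC, 5.91, 5.06, 2.30 and 7.58 CPM in AKI_A_mcherry and 5.14, 3.49, 5.13 and 6.36 CPM in the FGF23 variant group. Its log2 fold change was -0.22 ± 0.31 in AKI_A_mcherry against NC and -0.07 ± 0.32 in the FGF23 variant group against AKI_A_mcherry, with adjusted p of 0.570 and 0.903.

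Against NC, the FGF23 variant group was lower in 2 mitosis genes. Cenpe, the kinetochore motor that aligns chromosomes, was at 2.96, 3.37, 3.66 and 2.81 CPM in NC, 1.84, 2.95, 1.73 and 2.84 CPM in AKI_A_mcherry and 1.66, 0.807, 0.879 and 1.89 CPM in the FGF23 variant group. The FGF23 variant libraries lay below all NC libraries, 2.47-fold lower (log2 -1.31 ± 0.30, edgeR adjusted p = 0.00461). Nusap1, which binds spindle microtubules, had means of 5.53 ± 0.743 CPM in NC and 2.92 ± 1.44 CPM in the FGF23 variant group (SD, n = 4 each), 1.92-fold lower (adjusted p = 0.0261), and the call was lost without FGF23 variant replicates 1, 2 or 3 or NC replicates 2 or 3 (0.0544 to 0.0720). In AKI_A_mcherry against NC, the log2 fold changes of Cenpe and Nusap1 were -0.45 ± 0.25 and -0.55 ± 0.31 and did not pass (adjusted p = 0.153 and 0.159). The checkpoint kinase gene Bub1, the kinetochore gene Cenpf and the spindle motor genes Kif11 and Kif20a passed in none of the 3 comparisons.

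**Figure D2:**
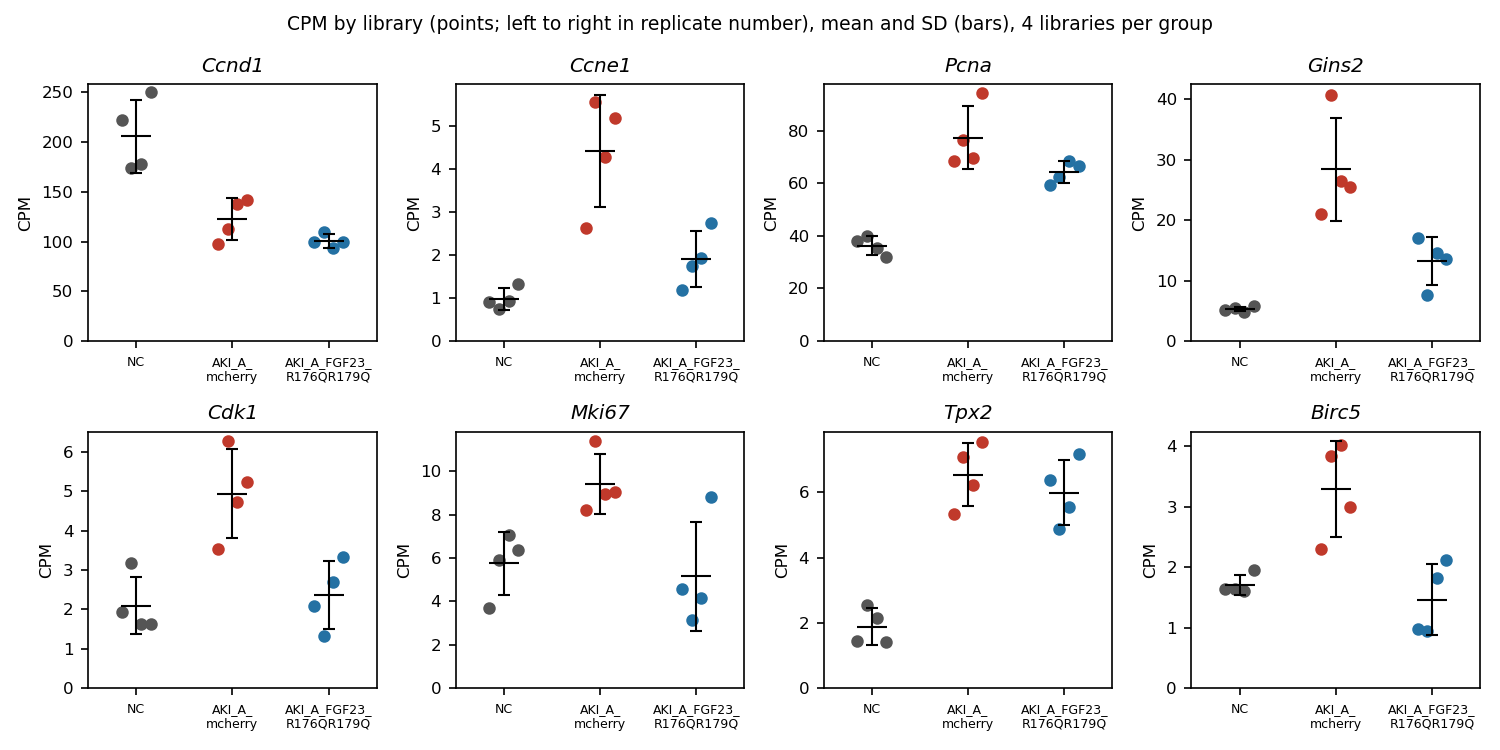
CPM of 8 members in each library (points, in order of replicate number) with the mean and SD (bars, 4 libraries per group); each vertical axis starts at 0. Ccnd1 is highest in NC, Pcna, Gins2 and Tpx2 lie above NC in both injured groups, and Cdk1 and Birc5 lie higher in AKI_A_mcherry than in both other groups.

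The phases were set side by side in each library as the median over their members of the log2 ratio of CPM to the mean of NC. In AKI_A_mcherry the replication median was 1.01, 1.33, 1.07 and 1.78 in replicates 1 to 4, and the mitosis median -0.05, 0.40, 0.21 and 0.47. In the FGF23 variant group the replication median was 0.71, 0.56, 0.69 and 1.00 in replicates 1, 2, 3 and 5, and the mitosis median -0.29, -0.82, -0.19 and 0.31. The replication median exceeded the mitosis median in all 8 injured libraries, by 0.85 to 1.31 in AKI_A_mcherry and 0.69 to 1.38 in the FGF23 variant group, and lay between -0.24 and 0.19 of it in NC. The G2/M median lay between them in AKI_A_mcherry, at 0.26, 0.70, 0.55 and 0.93. In the FGF23 variant group it was -0.30, -0.59, -0.15 and 0.64. These medians describe the lists and were given no test. The gap depended on which mitosis genes were listed. In AKI_A_mcherry against NC, the median log2 fold change of 26 other mitosis genes was 0.75, against 0.31 for the 13 mitosis members, beside 0.98 for 25 other replication genes. In the FGF23 variant group against NC, it was 0.18 for the other mitosis genes, against -0.24 for the members, beside 0.70 for the other replication genes.

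Replicate 5 of the FGF23 variant group was the highest of its group in 31 of 39 members and the lowest in 0, and replicate 2 the lowest in 26. In AKI_A_mcherry, replicate 4 was the highest in 25 and replicate 1 the lowest in 30. In NC, no library was highest in more than 14 or lowest in more than 12. The median coefficient of variation of the members was 17.8% in NC, 24.0% in AKI_A_mcherry and 30.2% in the FGF23 variant group. In the last it was 40.0% over G2/M and 40.4% over mitosis genes, against 15.2% over replication genes. In AKI_A_mcherry the order was the reverse, with 20.8% over G2/M, 24.1% over mitosis and 26.8% over replication genes. In NC the same phases had 25.2%, 19.1% and 13.5%.

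**Figure D3:**
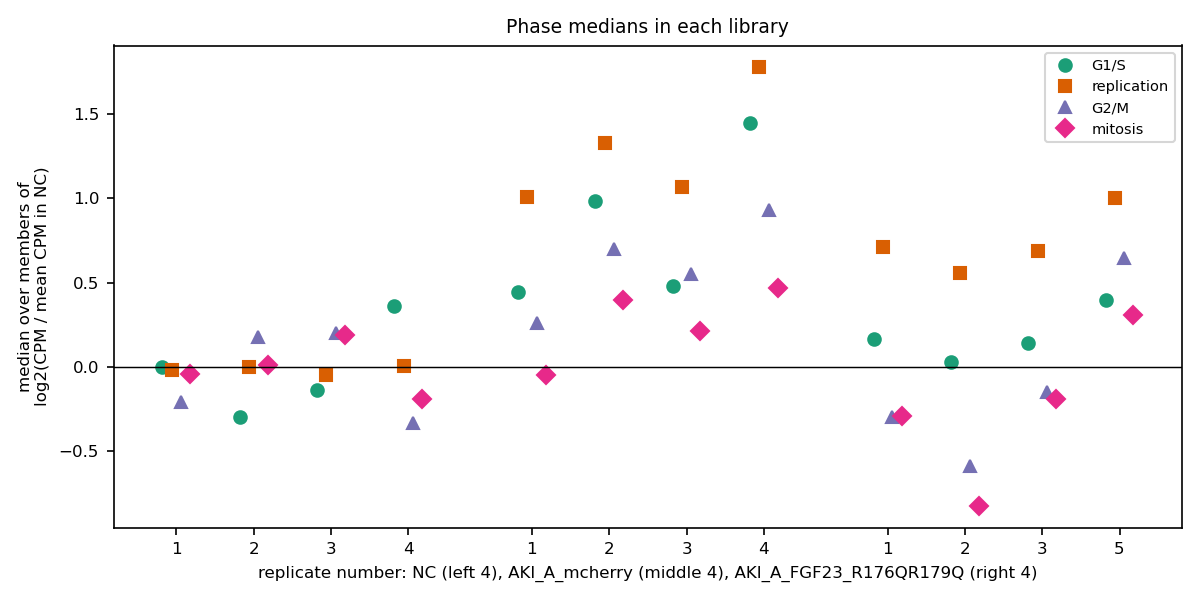
Median over the members of each phase of log2(CPM / mean CPM in NC) in each library (horizontal axis, by group and replicate number). In AKI_A_mcherry and the FGF23 variant group the squares (replication) lie above the diamonds (mitosis) in all 8 libraries, and replicate 5 has the highest values of the FGF23 variant group.

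Cell cycle brakes, genes whose products restrain the cycle, were read from a list of 18 genes, of which 17 were tested and Cdkn2a was too low. In AKI_A_mcherry against NC, 7 were higher and 5 lower, which is 41.2% and 29.4% of those tested beside 27.2% and 26.0% of all genes. Cdkn1a (ENSMUSG00000023067) was at 5.03, 3.53, 2.86 and 3.46 CPM in NC, 164, 131, 245 and 149 CPM in AKI_A_mcherry and 109.9, 134, 159.7 and 114 CPM in the FGF23 variant group. All 8 injured libraries lay far above NC, and the injured groups overlapped. Cdkn1a rose 46.4-fold in AKI_A_mcherry (log2 5.54 ± 0.25, edgeR adjusted p = 6.53e-08) and 34.5-fold in the FGF23 variant group (log2 5.11 ± 0.20, adjusted p = 7.58e-08) against NC, and its log2 difference between the injured groups was -0.43 ± 0.20 (adjusted p = 0.142). Gadd45a, a stress-induced inhibitor of CDK1, rose 4.29-fold and 3.59-fold, and Btg1, an antiproliferative factor, 3.35-fold and 2.65-fold in the same 2 comparisons.

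Of the 3 pocket protein genes, whose products hold E2F target genes silent, Rbl2 and Rb1 fell in AKI_A_mcherry against NC and Rbl1, encoding p107, did not pass (log2 -0.07 ± 0.18, edgeR adjusted p = 0.759). Rbl2, encoding p130, was at 72.5, 91.5, 79.2 and 83.0 CPM in NC, 37.4, 21.0, 28.0 and 38.7 CPM in AKI_A_mcherry and 58.9, 54.9, 46.6 and 52.6 CPM in the FGF23 variant group. NC was highest, AKI_A_mcherry lowest and no groups overlapped. Rbl2 fell 2.60-fold in AKI_A_mcherry against NC (log2 -1.38 ± 0.18, edgeR adjusted p = 7.72e-05) and was, against AKI_A_mcherry, 1.68-fold higher in the FGF23 variant group (log2 0.75 ± 0.18, adjusted p = 0.0144). Rb1, the retinoblastoma gene, fell 1.68-fold (adjusted p = 3.11e-04) and was 1.49-fold higher (adjusted p = 0.0231) in the same comparisons, and Cdkn2c, encoding the CDK4 and CDK6 inhibitor p18, fell 1.76-fold in AKI_A_mcherry (adjusted p = 7.95e-04). Between the injured groups, 2 brakes were higher, Rbl2 and Rb1, and 3 lower, Ccng2 (1.37-fold), Btg2 (1.91-fold) and Cdkn2b (1.83-fold). These are 11.8% and 17.6% of the brakes, near the 11.8% and 11.6% of all genes. The split was 3 higher and 0 lower with library totals alone, and 2 and 0 with the replicate number as a block. It was 1 and 1 without FGF23 variant replicates 1, 2 or 5 or AKI_A_mcherry replicate 3. Rb1 lost its call without any of these 4 libraries or AKI_A_mcherry replicate 2 (edgeR adjusted p of 0.0531 to 0.0719), Btg2 without these 4 or AKI_A_mcherry replicate 1 (0.0519 to 0.0683) and Cdkn2b without these 4 or AKI_A_mcherry replicate 2 (0.0604 to 0.0858), and Rbl2 kept its call without each library. Against NC, the FGF23 variant group was higher in 6 brakes and lower in 4 (35.3% and 23.5%, beside 21.6% and 20.5% of all genes), the lowest adjusted p of the latter being those of Ccng2 (1.68-fold), Rbl2 (1.55-fold) and Cdkn2c (1.52-fold), and the split was 10 and 2 with library totals alone.

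**Figure D4:**
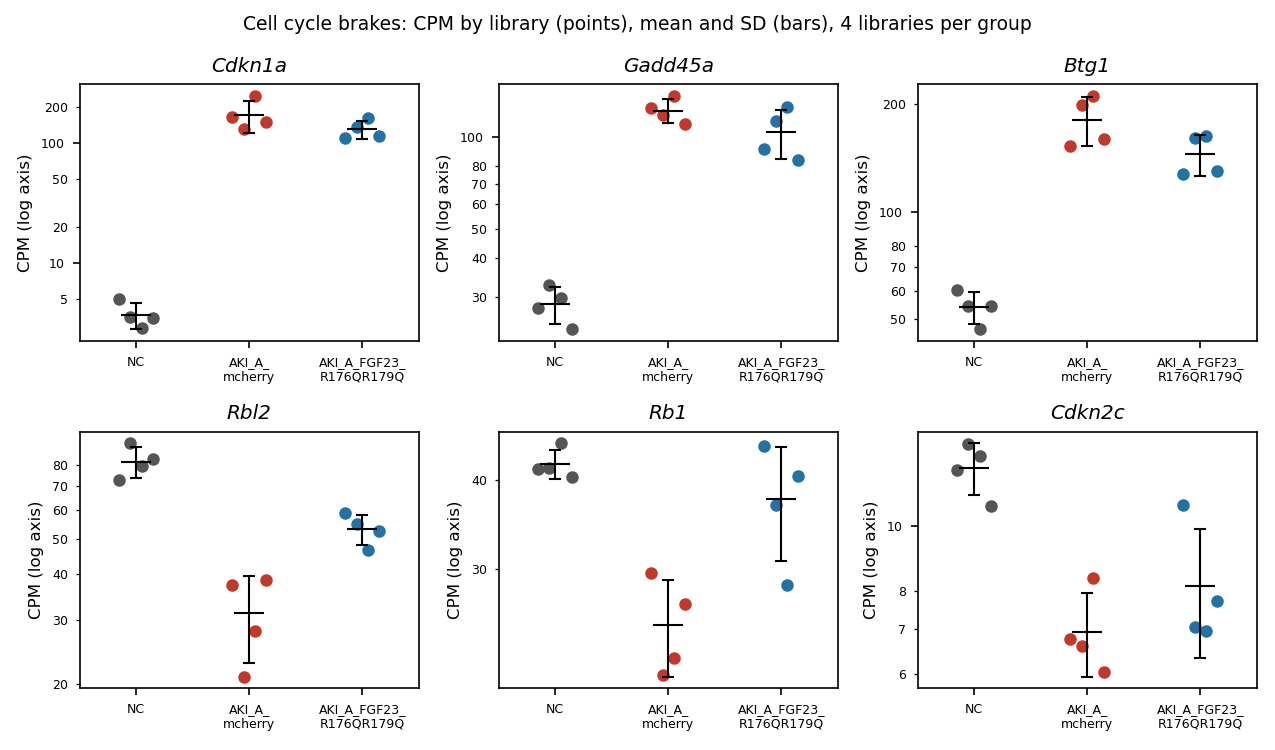
CPM on a log axis of 6 brakes in each library (points) with the mean and SD (bars, 4 libraries per group). Cdkn1a, Gadd45a and Btg1 lie above NC in all 8 injured libraries, and Rbl2 and Rb1 lie lower in AKI_A_mcherry than in NC.

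Other genes of the same phases were read from lists of further G1/S, replication and mitosis genes. Of 16 other G1/S genes, 10 were higher and 1 lower in AKI_A_mcherry than in NC (62.5% and 6.25%, beside 27.2% and 26.0% of all genes). E2f4, the E2F partner of the pocket proteins, was 2.77-fold higher (edgeR adjusted p = 2.30e-07), Myc, a transcription factor that drives cell growth, 9.21-fold (adjusted p = 9.90e-07), Cdk6, a partner of the D cyclins, 3.16-fold (adjusted p = 1.26e-05), and Ccnd3, cyclin D3, was 1.24-fold lower (adjusted p = 0.0362; 0.0610 to 0.103 without AKI_A_mcherry replicates 1 or 4 or NC replicates 1, 3 or 4). Against AKI_A_mcherry, the FGF23 variant group was higher in 0 (0 at an unadjusted p under 0.05, 0 by DESeq2 and limma-voom) and lower in 4, led by E2f4 (1.43-fold), Cdk6 (1.68-fold) and Cdk2 (1.31-fold), the kinase of cyclin E. The 4 are 25.0%, beside 11.6% of all genes. With library totals alone 1 was lower, and without FGF23 variant replicate 5 or with the replicate number as a block, 2 were. Cdk2 lost its call without FGF23 variant replicates 2 or 5 (edgeR adjusted p of 0.0531 and 0.0544). Against NC, 8 were higher and 2 lower (50.0% and 12.5%, beside 21.6% and 20.5%), with Myc at 8.37-fold, E2f4 at 1.94-fold and Cdk4 at 1.44-fold higher, and Ccnd3 at 1.29-fold and E2f5 at 1.30-fold lower. E2f5 lost its call without FGF23 variant replicates 1 or 5 or NC replicate 1 (edgeR adjusted p of 0.0529 to 0.0602), and without NC replicate 2, 3 were lower. With library totals alone 0 were lower, and with the replicate number as a block 6 were higher and 0 lower.

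Of 25 other replication genes, 18 were higher in AKI_A_mcherry than in NC (72.0%, beside 27.2% of all genes). Lig1, the ligase that joins Okazaki fragments, was 3.30-fold higher (edgeR adjusted p = 3.95e-06), Uhrf1, which carries DNA methylation through replication, 7.78-fold (adjusted p = 5.04e-06), and Pold1, of DNA polymerase delta, 2.69-fold (adjusted p = 1.87e-05). Against AKI_A_mcherry, 14 of the 25 were lower in the FGF23 variant group, led by Tk1, thymidine kinase 1 (2.12-fold), Lig1 (1.63-fold) and the flap endonuclease gene Fen1 (1.64-fold). The 14 are 56.0%, beside 11.6% of all genes. They were 6 with library totals alone, 7 without FGF23 variant replicates 1 or 2, 9 without its replicate 5 and 8 without AKI_A_mcherry replicates 2 or 4. With the replicate number as a block they were 4. Against NC, the FGF23 variant group was higher in 14 (56.0%, beside 21.6% of all genes), with Lig1 2.01-fold, Uhrf1 3.56-fold and Orc2 1.71-fold higher, and Mcm10 was 2.48-fold and Tk1 1.71-fold lower. With the replicate number as a block, 8 were higher.

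Of 26 other mitosis genes, 15 were higher and 3 lower in AKI_A_mcherry than in NC (57.7% and 11.5%, beside 27.2% and 26.0% of all genes). The 15 were 11 to 15 when single libraries were left out, with the fewest without NC replicate 2. With the replicate number as a block they were 10. Kif23, a motor of the central spindle, was 3.92-fold higher (edgeR adjusted p = 1.17e-04), Bub3, of the spindle checkpoint, 1.57-fold (adjusted p = 2.07e-04) and Incenp, the scaffold of the chromosomal passenger complex, 1.85-fold (adjusted p = 0.00228). The kinase gene Nek2 was 1.62-fold lower, Spc25, of the kinetochore, 1.47-fold and Hmmr 1.93-fold. Hmmr lost its call without AKI_A_mcherry replicates 1, 3 or 4 or NC replicates 1, 2 or 3 (edgeR adjusted p of 0.0538 to 0.105). Against AKI_A_mcherry, the FGF23 variant group was higher in 0 (0 at an unadjusted p under 0.05, 0 by DESeq2 and limma-voom) and lower in 4, led by Kif23 (2.33-fold), Nuf2 (2.46-fold) and Mad2l1 (1.53-fold), and 2 with library totals alone but 7 by DESeq2 and by limma-voom. The 4 are 15.4%, beside 11.6% of all genes, and were 2 without FGF23 variant replicate 2, where Mad2l1 lost its call (edgeR adjusted p = 0.0607), and 7 without its replicate 5. With the replicate number as a block, 1 was lower. Against NC, 4 were higher, led by Bub3 (1.39-fold), Smc2 (1.60-fold) and Incenp (1.44-fold), and 2 lower, Nek2 (1.79-fold) and Pttg1 (1.25-fold). These are 15.4% and 7.69%, below the 21.6% and 20.5% of all genes. The higher ones were 2 without FGF23 variant replicate 5 or NC replicates 1 or 4 and 7 with library totals alone. With the replicate number as a block they were 0. Incenp lost its call without those 3 libraries or NC replicate 3 (edgeR adjusted p of 0.0565 to 0.0829) and Pttg1 without FGF23 variant replicates 1, 2 or 5 or NC replicates 1 or 3 (0.0587 to 0.0803).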

How the data were processed

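RNA of 12 mouse kidney libraries was made into polyA-selected, stranded libraries, per the labels' protocols. The deposited table holds raw counts per gene and FPKM values made by the authors; fastp, StringTie, edgeR and the build GRCm39 are named in the submitters' processing notes, and no source used here names the aligner, counter or annotation. A reference table gave symbols for 31942 of 32047 gene IDs, and the others stayed in the fits. Groups came from the sample titles. For each comparison the 8 libraries of its groups entered an edgeR 4.0.16 fit (filterByExpr, TMM factors, robust quasi-likelihood F test, Benjamini-Hochberg adjustment over all genes tested, threshold 0.05). The deposited FPKM served only to compare levels between genes. DESeq2 1.42.0 and limma 3.58.1, other scalings, filters and left-out libraries were the alternatives. The members and gene lists were chosen with earlier results of these data known. Members that passed were named with their fold; every library's value was given for 20 listed members and for the member of each phase with the smallest adjusted p in each direction. From each other list, up to 3 genes per direction with the smallest adjusted p were named, and Cdkn1a always. The result of 1 gene of the other replication list is not reported here. Scripts were tested on simulated data. Replicate numbers were checked for pairing: deviations of same-numbered libraries correlated by -0.325 to 0.202 over 14804 genes, and the numbers were not taken to pair samples. Between the injured groups the correlations were 0.135, 0.081 and 0.202, all positive, so pairing is not settled there and the replicate block is given as an alternative. In block fits with the FGF23 variant group, its replicate 5 and replicate 4 of the other group had no partner and could not inform the fold change.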

Additional observations from a re-analysis of the deposited data

Results flagged for a closer look

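In 6 of 117 groups of 4 libraries, 1 library stood far from the other 3 for a member, by a gap test that chance passes in about 1 of 20 groups. In AKI_A_mcherry replicate 4, Ccne2 was at 8.00 CPM against 3.30 to 3.93 CPM, and Mcm4 at 33.6 CPM against 19.1 to 20.9 CPM. In replicate 5 of the FGF23 variant group, Top2a was at 10.5 CPM against 3.36 to 4.34 CPM and Cdc20 at 3.36 CPM against 1.61 to 1.76 CPM. In NC replicate 4, Birc5 was at 1.95 CPM against 1.60 to 1.64 CPM and Kif20a at 2.14 CPM against 2.99 to 3.04 CPM.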

How the results depend on the processing

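In AKI_A_mcherry against NC, 27 of 39 members kept direction and call in every alternative in which they were tested, 18 of the 25 called ones among them. In the FGF23 variant group against AKI_A_mcherry, 17 of 39 did, but of the 12 called ones only 1, Mcm3. Against NC, 11 of the 16 called members of the FGF23 variant group did, and single members that were not called were not followed there. Requiring a mean of at least 5 CPM left 18, 19 and 16 members tested, of which 14 were higher in the first comparison, 7 lower in the second and 1 lower in the third, against 24, 12 and 3. Library totals alone gave 5 lower members in the second. Leaving out single libraries gave 21 to 24 higher and 1 lower member in the first comparison, 2 to 16 lower in the second and 11 to 13 higher and 2 to 3 lower in the third. No paired design is given by the labels. With the replicate number as a block, the second comparison had 5 lower members, the first 24 higher and 1 lower and the third 9 higher and 4 lower. In the second comparison, 2 of 3 FGF23 variant libraries and 1 of 3 AKI_A_mcherry libraries correlated best with their own number, and 0 did in the others. Members that did not pass changed sign in places. In AKI_A_mcherry against NC, Ccnb1 was -0.0054 without AKI_A_mcherry replicate 4 (up to 0.67 with other libraries left out), Cenpf -0.0087 with the replicate block and -0.14, -0.094, -0.090 and -0.037 without AKI_A_mcherry replicates 3 and 4 and NC replicates 1 and 4 (up to 0.21), Kif20a 5.04e-05 with library totals alone and Ect2 0.032 without AKI_A_mcherry replicate 3 (down to -0.46; log2 fold changes). In the FGF23 variant group against AKI_A_mcherry, library totals alone gave Rrm1 0.14, Tyms 0.021, Tpx2 0.065 and Ect2 0.14, and Ect2 was 0.11 with the replicate block and 0.074, 0.0012 and 0.17 without FGF23 variant replicate 2 and AKI_A_mcherry replicates 1 and 4 (down to -0.31). The cause was not tested. Low counts limit the precision, and unevenly between the phases. Of the 16 members with under 100 counts in some library, Cdc6 was the only replication gene, and most were G2/M or mitosis genes. The numbers of genes that passed in each phase therefore do not rest on equal precision.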
